A study of Homo sapiens with 6 samples.

Results

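AP-1 is a family of dimeric transcription factors, and 10 of its genes were followed here in ARPE-19, an established human cell line of the retinal pigment epithelium: JUN, JUNB, JUND, FOS, FOSB, FOSL1, FOSL2, ATF2, ATF3 and BATF3. Members were all probe sets (groups of short oligonucleotides on the array that read 1 transcript or a few) that the platform's gene table pairs with exactly 1 of these symbols. That gave 36 of the 49372 probe sets of the array, for 10 of 18132 genes with such a probe set, and every member gene passed the filter on dim genes. The 3 control arrays (GFP) came from cells transfected with 2.5 µg per well of a GFP plasmid, and the 3 others (SATalpha) from cells given the same amount of a GFP plasmid that also carries satellite alpha, a repeat found at human centromeres. GFP and transfection were therefore common to both groups. Total RNA of whole wells was measured, so a change in every cell, a change in the cells that took up plasmid and a change in cell numbers cannot be told apart, and the time between transfection and harvest is not given in the labels.

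JUN, FOS and ATF proteins share a basic region that contacts DNA and a leucine zipper through which they pair. JUN proteins pair with themselves or with FOS proteins and bind the TPA response element, whereas ATF proteins prefer the longer cAMP response element. Several of the genes are immediate early genes, induced within minutes by serum, growth factors and stress through MAP kinases, and in epithelial cells their products act on genes of proliferation, matrix breakdown and inflammation.

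The family did not move in 1 direction. With satellite alpha, JUN rose 1.32-fold and JUND 1.24-fold, while FOSL2 fell 1.47-fold and ATF3 fell 1.16-fold, each by the probe set with the highest mean signal of its gene. These 4 of the 10 genes passed limma's adjusted p of 0.05, 2 of them higher and 2 lower, against 20.8% of all 10879 tested genes (7.72% higher and 13.0% lower). The median log2 difference of the 10 genes was 0.05, against -0.02 over all tested genes. The 3 values of 1 group lay wholly on one side of the other 3 in 7 of the 10 genes, against 37.6% of all tested genes. Of the 5 FOSL2 probe sets 1 fell and 1 rose, and of the 4 JUN probe sets 3 rose and 1 fell, so the probe sets of these genes are described separately further on. Differences are SATalpha minus GFP on the log2 scale throughout, in which 1 unit is a doubling, and SE is limma's moderated standard error.

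**Figure D1:**
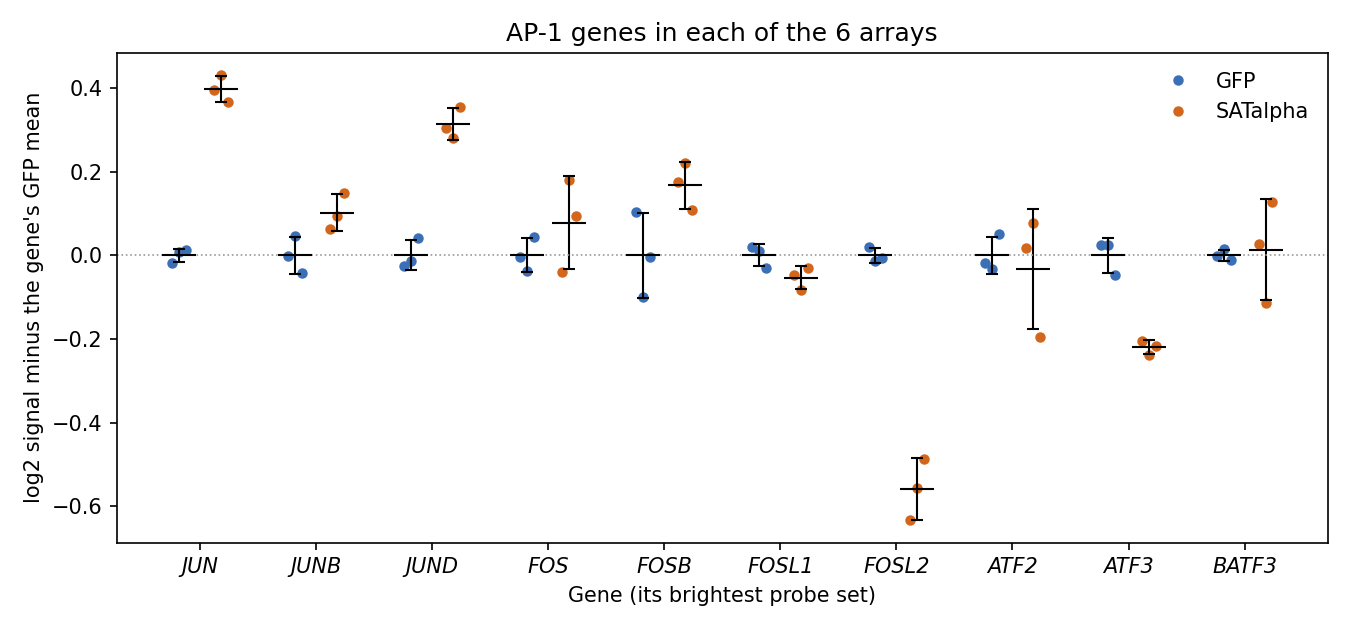
Log2 signal of each AP-1 gene (x axis, brightest probe set) in the 6 arrays, drawn as the distance from that gene's GFP mean (y axis, log2 units). Points are arrays, horizontal bars are group means and whiskers are SD (n = 3). JUN and JUND stand above 0 and FOSL2 and ATF3 below 0 in every SATalpha array, while FOS, ATF2 and BATF3 overlap between the groups.

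Promoter windows are shown for the 4 genes that passed by their brightest probe set. They let a reader see the letters that AP-1 and ATF proteins are known to bind. The windows come from RefSeq on GRCh38.p14, run 5′ to 3′ in the direction of the gene from 250 bases before the annotated start to 20 bases after it, and are in lower case with any searched motif in capitals. The JUN window is chr1:58784028-58784297 (minus strand), that of JUND chr19:18281603-18281872 (minus strand), that of FOSL2 chr2:28392608-28392877 (plus strand) and that of ATF3 chr1:212565157-212565426 (plus strand, the more upstream of 2 listed ATF3 starts).
JUN: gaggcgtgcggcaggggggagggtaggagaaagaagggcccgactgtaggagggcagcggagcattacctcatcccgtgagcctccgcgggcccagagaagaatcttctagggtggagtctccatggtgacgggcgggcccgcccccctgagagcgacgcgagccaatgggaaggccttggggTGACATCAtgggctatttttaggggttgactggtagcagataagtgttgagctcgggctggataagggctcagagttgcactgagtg
JUND: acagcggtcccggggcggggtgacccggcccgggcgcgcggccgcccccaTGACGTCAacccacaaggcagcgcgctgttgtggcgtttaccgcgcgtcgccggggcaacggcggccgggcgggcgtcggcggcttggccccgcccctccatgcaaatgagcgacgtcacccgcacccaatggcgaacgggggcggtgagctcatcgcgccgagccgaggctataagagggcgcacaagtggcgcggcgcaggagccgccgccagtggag
FOSL2: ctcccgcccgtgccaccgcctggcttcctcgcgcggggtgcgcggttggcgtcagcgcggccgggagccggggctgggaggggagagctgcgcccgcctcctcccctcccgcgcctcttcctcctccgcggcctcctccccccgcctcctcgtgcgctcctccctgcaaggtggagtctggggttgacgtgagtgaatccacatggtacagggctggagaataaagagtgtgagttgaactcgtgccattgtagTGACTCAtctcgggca
ATF3: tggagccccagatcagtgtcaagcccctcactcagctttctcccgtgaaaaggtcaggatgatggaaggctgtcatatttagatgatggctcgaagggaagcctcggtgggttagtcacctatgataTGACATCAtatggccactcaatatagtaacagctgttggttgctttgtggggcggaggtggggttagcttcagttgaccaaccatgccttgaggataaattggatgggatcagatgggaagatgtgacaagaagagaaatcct

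The motifs searched, on both strands, were TGACTCA (the TPA response element), TGACGTCA (the cAMP response element), TGACATCA (a variant known from the JUN promoter) and the CArG box, which binds SRF. No motif in these windows overlapped another. JUN held TGACATCA at -67 to -60 from its start and ATF3 held it at -123 to -116. As that variant is known from the JUN promoter, its match in JUN was fixed before the search. JUND held TGACGTCA at -200 to -193, and FOSL2 held TGACTCA at 5 to 11 bases into the transcript. Windows of 250 bases before to 50 after the start were found for 7 of the 10 members, 8 windows in all. The FOS, FOSB and JUNB windows and the other ATF3 window held none of the 4 motifs. Sites outside the windows, or with letters other than those searched, would be missed, so these promoters may still hold such sites. Of all 35116 windows of that length, 4.95% held TGACTCA, 1.85% TGACGTCA, 2.61% TGACATCA, 1.29% a CArG box and 10.3% any of them. A match is a string of letters and not a measured binding site, and binding was not measured in this series. FOSL1, ATF2 and BATF3 had no window in the table.

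JUN encodes the partner that most AP-1 dimers share. Its brightest probe set (11718394_at) read 10.41, 10.44 and 10.44 in the GFP arrays and 10.83, 10.86 and 10.80 in the SATalpha arrays. All 3 SATalpha values lay above all 3 GFP values. The log2 difference was 0.40 (SE 0.04, 95% confidence interval 0.32 to 0.47, limma adjusted p = 5.25e-06).

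A pair of further JUN probe sets rose by nearly the same amount. Probe set 11718395_s_at stood at 8.98 ± 0.05 in GFP arrays and 9.38 ± 0.10 in SATalpha arrays (SD, n = 3) and rose by 0.40 (limma adjusted p = 0.000384 over all non-control probe sets). Probe set 11718396_x_at stood at 8.39 ± 0.05 and 8.83 ± 0.09 (SD, n = 3) and rose by 0.44 (limma adjusted p = 0.000226). The remaining probe set, 11718397_s_at, went the other way: it read 9.55, 9.56 and 9.57 with GFP and 9.32, 9.31 and 9.28 with satellite alpha. Its groups did not overlap either, and it fell by 0.26 (SE 0.04, adjusted p = 0.00145). The gap between that probe set and the brightest one, taken within each array, changed by -0.65 (SE 0.06, limma adjusted p = 0.0108 over 20604 such pairs). With any 1 of GFP replicates 1, 2 or 3 or SATalpha replicate 1 left out, this unequal change no longer passed, although the falling probe set itself passed with each array left out in turn. JUN therefore had 3 probe sets that rose and 1 that fell, and as the mean of all 4 the gene still passed, at 0.24 (limma adjusted p = 0.000907).

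JUND and JUNB encode the other JUN proteins. JUND, which in many tissues is expressed steadily and can restrain growth, has 1 probe set here, and it read 6.79, 6.80 and 6.86 with GFP against 7.12, 7.09 and 7.17 with satellite alpha. The groups did not overlap. JUND rose by 0.31 (SE 0.06, 95% confidence interval 0.18 to 0.45, limma adjusted p = 0.00290).

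JUNB, often a weaker activator than JUN, read 7.10, 7.15 and 7.06 with GFP and 7.17, 7.20 and 7.25 with satellite alpha in its 1 probe set. The 3 SATalpha values were above the 3 GFP values by a narrow margin, and the difference of 0.10 did not pass (95% confidence interval -0.03 to 0.23, limma adjusted p = 0.259). The probe sets of JUND and JUNB both carry the array maker's mark for probes that may also catch related transcripts (_x_at), so neither gene could be tested with such probe sets left out.

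FOS encodes the founding member of the FOS proteins, which cannot pair with themselves and need a JUN partner. It read 6.56, 6.52 and 6.60 with GFP and 6.52, 6.74 and 6.66 with satellite alpha. The groups overlapped, since SATalpha replicate 1 lay below every GFP value. The difference was 0.08 (95% confidence interval -0.08 to 0.24, limma adjusted p = 0.501). The 3 other FOS probe sets differed by 0.11, 0.05 and 0.12, with overlapping groups in each, and none passed.

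FOSB, a FOS protein induced more slowly and also made in a shorter form, read 6.40, 6.20 and 6.29 with GFP and 6.47, 6.52 and 6.41 with satellite alpha. Its groups only just failed to overlap. The difference of 0.17 had an interval above 0 (0.0034 to 0.33) before adjustment but did not pass (limma adjusted p = 0.140). The other FOSB probe set differed by 0.10 with overlapping groups.

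FOSL1, also called FRA1, lacks the strong activation domain of FOS and is known for its role in invasion. Its brightest probe set read 8.67, 8.66 and 8.62 with GFP and 8.60, 8.57 and 8.62 with satellite alpha. The SATalpha values were lower by the barest margin, and the difference of -0.05 did not pass (95% confidence interval -0.15 to 0.04, limma adjusted p = 0.449). The differences of its 5 other probe sets ran from -0.02 to 0.13, and none passed. The direction for FOSL1 is thus unsettled: the mean of its 6 probe sets differed by 0.04.

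FOSL2, or FRA2, is the other FOS-related protein of this kind. Its brightest probe set (11731599_a_at) read 8.16, 8.13 and 8.13 with GFP and 7.51, 7.58 and 7.65 with satellite alpha. This gap was the widest of any member gene by its brightest probe set, with no overlap. The log2 difference was -0.56 (SE 0.06, 95% confidence interval -0.68 to -0.44, limma adjusted p = 1.28e-05).

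The other FOSL2 probe sets differed in both directions. Probe set 11763169_at read 7.12, 7.02 and 6.95 with GFP and 7.19, 7.37 and 7.42 with satellite alpha, so all its SATalpha values were higher. It rose by 0.30 (SE 0.07, limma adjusted p = 0.0233 over all non-control probe sets). Leaving out replicate 2 or 3 of either plasmid, 1 array at a time, took that call away, as did a fit with no mean-variance trend. Probe sets 11763171_at and 11763170_s_at differed by 0.14 and 0.02, and 11731600_a_at, the dimmest of the 5, by -0.18. None of these 3 passed.

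Within arrays, 3 of the 4 other FOSL2 probe sets changed unequally to the brightest one, by 0.86 for 11763169_at, 0.70 for 11763171_at and 0.58 for 11763170_s_at (SE 0.07 in each, limma adjusted p = 0.00451, 0.0108 and 0.0186). The change of 11731600_a_at, the other one with a negative difference, was not shown to be unequal to the brightest (adjusted p = 0.268). Probe set 11763169_at passed this test with each array left out in turn. Those for 11763171_at and 11763170_s_at passed only when the array left out was SATalpha replicate 3. As the mean of its 5 probe sets FOSL2 differed by -0.05 and did not pass (adjusted p = 0.560), so a direction for the gene as a whole was not settled by these probe sets.

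**Figure D2:**
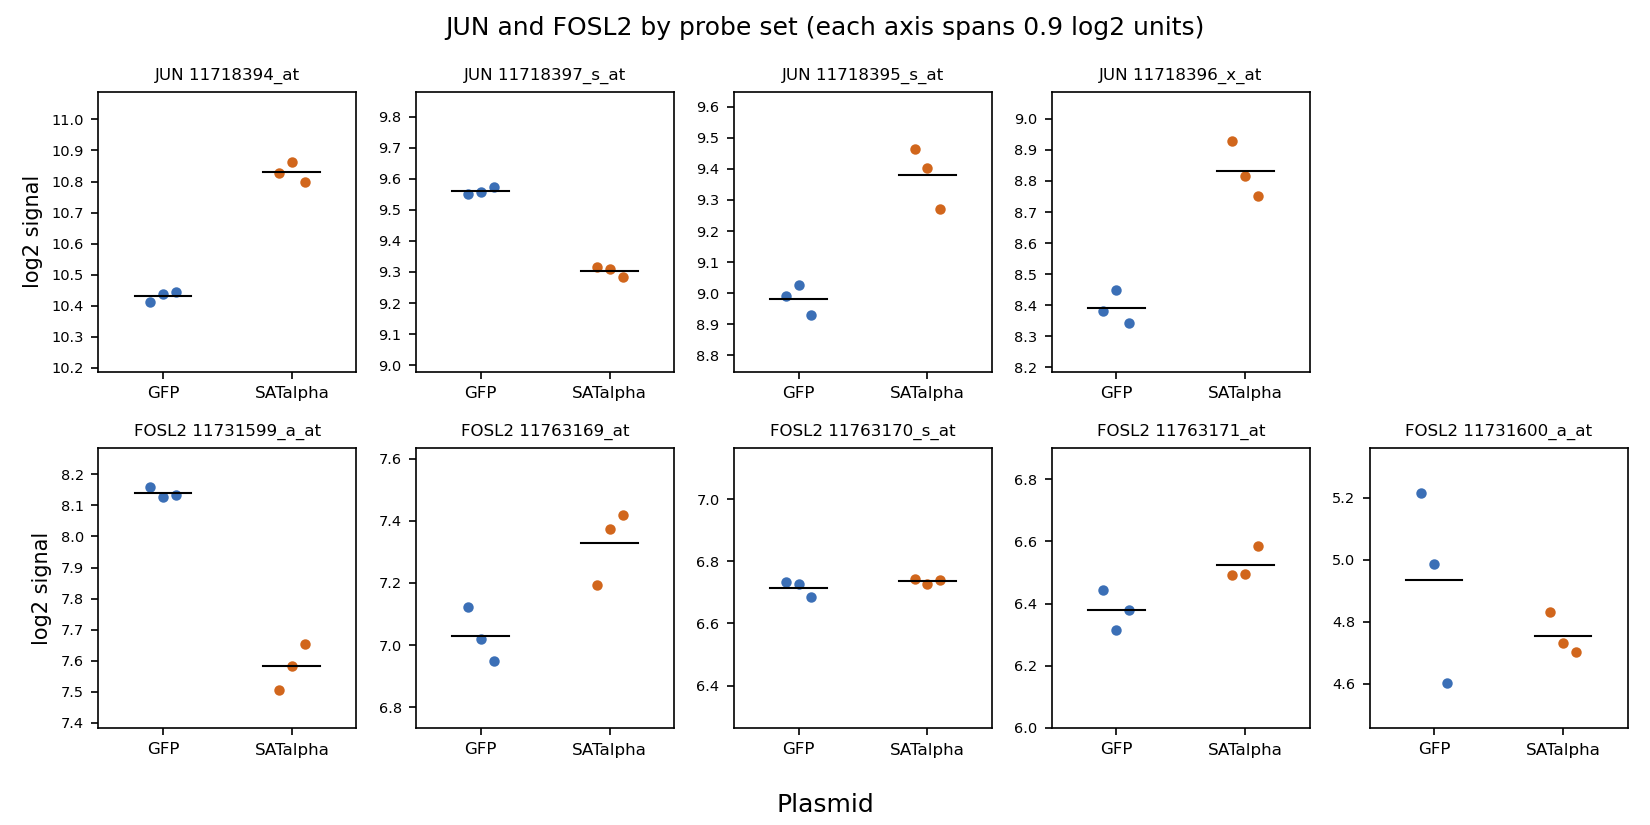
Log2 signal (y axis, each panel spanning 0.9 log2 units around its own values) of the 4 JUN and 5 FOSL2 probe sets by plasmid (x axis). Points are arrays and bars are means of 3. JUN 11718397_s_at fell while the 3 other JUN probe sets rose, and FOSL2 11731599_a_at fell while 11763169_at rose.

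Among all member genes, 4 of 26 such comparisons between a further probe set and the brightest one passed, 3 in FOSL2 and 1 in JUN, against 1.11% of all such pairs. Signals of probe sets built on different parts of a transcript also move with RNA integrity, and here the 3′ minus 5′ signal of the GAPDH controls overlapped, at 0.34 to 0.43 with GFP and 0.35 to 0.47 with satellite alpha. That of the actin controls was 1.99 to 2.11 and 1.87 to 2.11. The part of RNA integrity in the disagreement was not tested. Which transcripts the disagreeing JUN and FOSL2 probe sets read was not tested.

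ATF3 encodes a stress-induced factor that represses transcription as a homodimer and can activate it with a JUN partner. Its brightest probe set read 10.74, 10.74 and 10.67 with GFP and 10.51, 10.48 and 10.50 with satellite alpha. The groups did not overlap, and ATF3 fell by 0.22 on the log2 scale (SE 0.04, 95% confidence interval -0.30 to -0.14, limma adjusted p = 0.000981). The 7 ATF3 probe sets all had negative differences, but the sign of the dimmest, 11763463_a_at, was not settled. Its 95% confidence interval ran from -0.39 to 0.35.

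The largest ATF3 difference was in 11742243_a_at, which read 5.86, 5.93 and 5.96 with GFP and 5.36, 5.54 and 5.19 with satellite alpha. It fell by 0.55 (SE 0.10, limma adjusted p = 0.00303 over all non-control probe sets). Probe set 11719343_x_at also fell, by 0.28 (limma adjusted p = 0.0164), but did not pass when GFP replicate 2, GFP replicate 3 or SATalpha replicate 2 was left out. Another 3 had no overlap between the groups but did not pass, with differences of -0.13, -0.16 and -0.37, and the dimmest, at -0.02, overlapped. No ATF3 probe set was shown to change unequally to the brightest one (lowest adjusted p 0.221).

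ATF2 is held in cells as a ready protein and is activated by phosphorylation through JNK and p38. It read 8.75, 8.74 and 8.82 with GFP and 8.79, 8.85 and 8.57 with satellite alpha. SATalpha replicate 3 was the lowest of the 6 arrays and SATalpha replicate 2 the highest, so the groups overlapped. The difference was -0.03 (95% confidence interval -0.17 to 0.10, limma adjusted p = 0.759), and without SATalpha replicate 3 it was 0.05. The differences of the 4 other ATF2 probe sets ran from -0.13 to 0.02, and none passed.

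BATF3, a small AP-1 protein known from dendritic cells, read 6.31, 6.33 and 6.31 with GFP and 6.34, 6.20 and 6.44 with satellite alpha. The SATalpha values spanned the GFP values, and the difference was 0.01 (95% confidence interval -0.15 to 0.18, limma adjusted p = 0.930).

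Counted by probe set, 5 of the 36 rose and 5 fell by limma fitted over all 49293 non-control probe sets, against 8.36% of those called in either direction. The groups did not overlap in 9 that were higher and 9 that were lower, against 26.0% of all. The 5 that rose were 3 of JUN, 1 of FOSL2 and 1 of JUND, and the 5 that fell were 3 of ATF3, 1 of JUN and 1 of FOSL2. Probe sets of 1 gene share its transcripts and are not replicates.

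**Figure D3:**
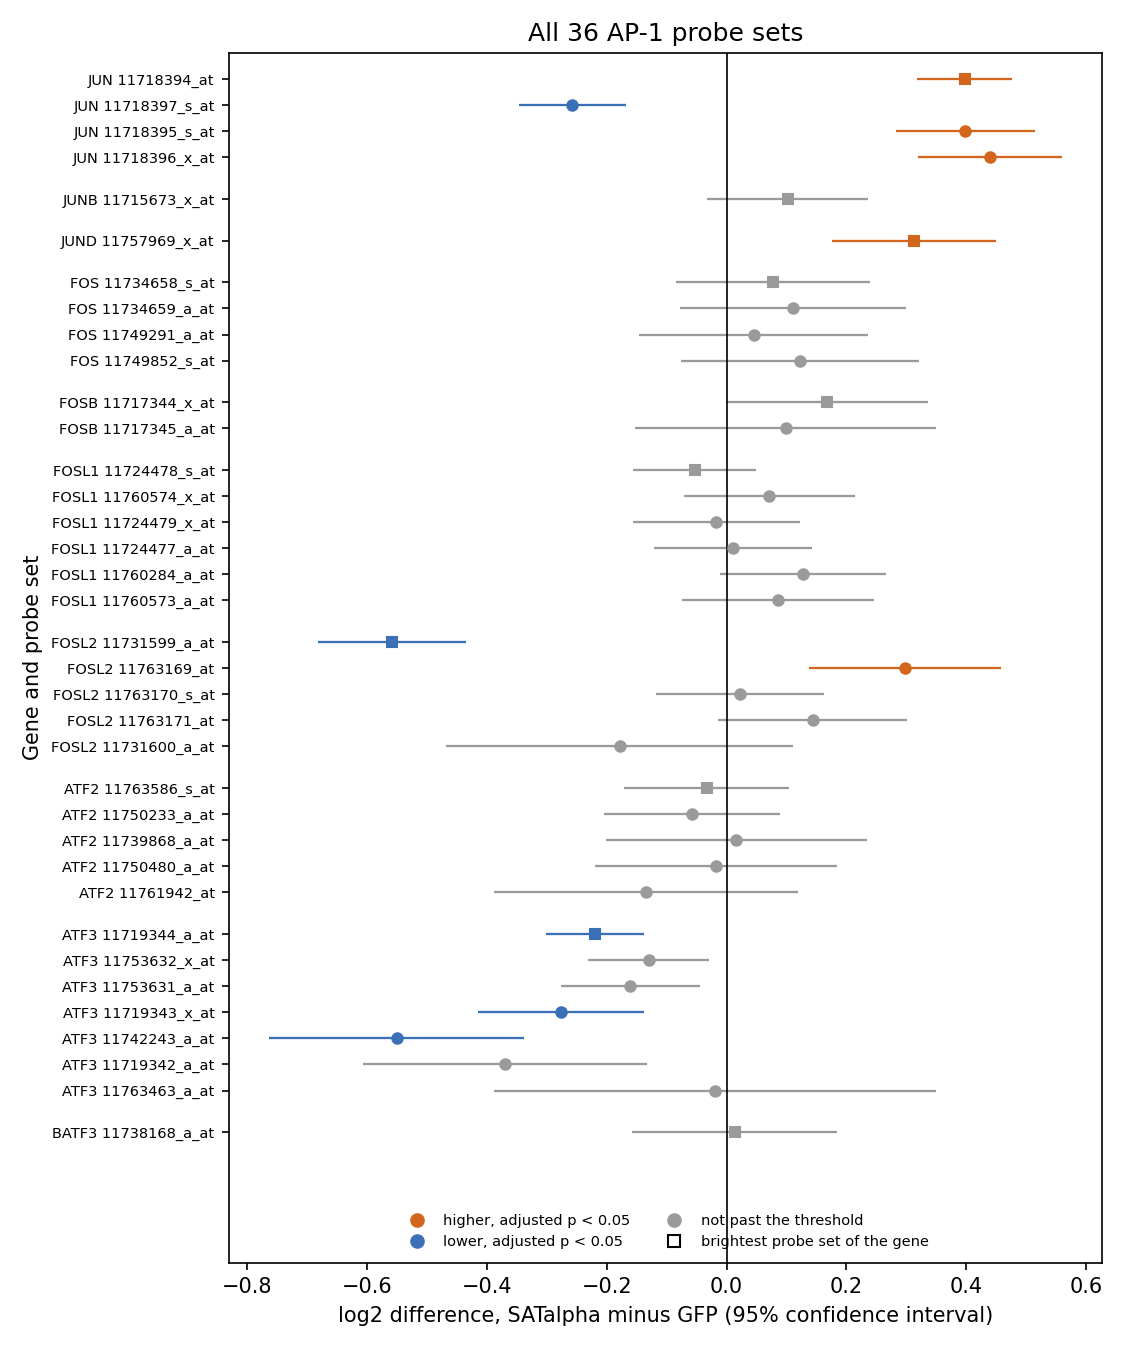
Log2 difference, SATalpha minus GFP (x axis), of each of the 36 AP-1 probe sets (y axis), with 95% confidence intervals from limma fitted over all non-control probe sets. Squares mark the brightest probe set of each gene, and orange and blue mark adjusted p below 0.05 (5 higher and 5 lower). The ATF3 differences all lie left of 0, the dimmest at -0.02 with an interval that spans 0, whereas those of JUN and FOSL2 lie on both sides.

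Genes that act on AP-1 were taken as lists. The first list held genes of the JNK, ERK and p38 kinase cascades upstream of AP-1, among them the scaffold genes MAPK8IP1 and MAPK8IP3. Of its 22 tested genes, 0 rose and 2 fell by limma (1 higher and 5 lower at an unadjusted p under 0.05), with a median of -0.05. The 9.09% that fell stands beside 13.0% of all tested genes. MAP3K1, which feeds JNK, read 7.15, 7.17 and 7.12 with GFP and 6.86, 6.91 and 6.92 with satellite alpha. It fell by 0.25 (SE 0.06, adjusted p = 0.0104), but its other probe set differed by 0.03 and stood alone when probe sets shared by several transcripts were left out. MAPK13, a p38 kinase, fell by 0.33 (SE 0.11, adjusted p = 0.0377), with 0.01 and 0.16 in its other probe sets. Its signal was dim, at a mean of 5.58 with GFP and 5.25 with satellite alpha. The MAPK13 call was lost without GFP replicate 1 (-0.27), GFP replicate 3 (-0.33) or SATalpha replicate 1 (-0.24). With the mean of a gene's probe sets, or with probe sets shared by several transcripts left out, 0 genes of this list passed by limma.

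A list of factors that act on immediate early promoters took in SRF, its partners, MEF2A and MEF2D. Of 8 tested, 1 was higher and 1 lower (12.5% each, against 7.72% and 13.0% of all tested genes), with a median of -0.12. ELK4, a ternary complex factor that binds beside SRF, read 5.41, 5.35 and 5.44 with GFP and 6.22, 5.96 and 6.05 with satellite alpha. Its groups stood far apart, and it rose by 0.68 (SE 0.09, limma adjusted p = 0.000140), more than any member gene by its brightest probe set, with 0.01 to 0.46 in its other probe sets. ELK4 was dim, however, with GFP values just above the floor of 5.19 for tested genes. MEF2A, which binds the JUN promoter in many cells, fell by 0.29 (SE 0.05, adjusted p = 0.00239), with other probe sets at -0.16 to 0.12. As the mean of its probe sets MEF2A differed by -0.07 and did not pass (adjusted p = 0.294).

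Among 23 other basic leucine zipper genes, partners or competitors of AP-1, 5 rose and 5 fell (21.7% each, against 7.72% and 13.0% of all tested genes), with a median of -0.08. MAF, which can pair with FOS and JUN, rose by 0.52 (SE 0.08, limma adjusted p = 0.000392), although its mean over all probe sets was 0.20 and did not pass (adjusted p = 0.0647). CREB5, a relative of ATF2, read 5.88, 6.02 and 6.08 with GFP and 5.49, 5.35 and 5.41 with satellite alpha. It fell by 0.58 (SE 0.09, adjusted p = 0.000467), and its 4 other probe sets were lower too, by 0.30 to 0.76. CREB5 was dim, however, with a mean of 5.42 with satellite alpha against the floor of 5.19 for tested genes. Its other probe sets were dimmer still. DDIT3, a stress factor also called CHOP, fell by 0.32 (adjusted p = 0.000488), with -0.33 in its other probe set. BATF2, which competes with FOS for JUN, fell by 0.47 (adjusted p = 0.000556), with -0.80 in its other probe set.

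Of 20 tested ubiquitin ligases, cofactors and mRNA decay factors that act on AP-1 proteins or transcripts, 4 rose and 4 fell (20% each, against 7.72% and 13.0% of all tested genes), with a median of -0.08. ZFP36L1, which binds AU-rich elements of short-lived mRNAs and speeds their decay, read 11.70, 11.75 and 11.69 with GFP and 12.14, 12.15 and 12.14 with satellite alpha. It rose by 0.42 (SE 0.03, limma adjusted p = 8.11e-07), and its 5 other probe sets were higher by 0.36 to 1.20. TRIB1, a pseudokinase that works with the ligase COP1, rose by 0.45 (adjusted p = 2.62e-05), with 0.50 in its other probe set. DET1, which joins COP1 in a ligase that targets JUN, fell by 0.39 (adjusted p = 0.00244), with -0.06 in its other probe set. ELAVL1, which binds and stabilises AU-rich mRNAs, fell by 0.19 (adjusted p = 0.00725), but its mean over all probe sets was -0.10 and did not pass (adjusted p = 0.262).

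Of 30 tested textbook AP-1 target genes, 5 rose and 5 fell (16.7% each, against 7.72% and 13.0% of all tested genes), with a median of 0.06. MMP14, a membrane metalloproteinase, read 9.59, 9.66 and 9.60 with GFP and 10.01, 9.91 and 10.00 with satellite alpha. It rose by 0.35 (SE 0.04, limma adjusted p = 7.03e-05), and its other probe sets were higher by 0.12 to 0.21. CCND1, the G1 cyclin D1, rose by 0.30 (SE 0.04, adjusted p = 0.000136). In the other direction, PLAU, the urokinase plasminogen activator, read 9.71, 9.73 and 9.77 with GFP and 9.33, 9.38 and 9.42 with satellite alpha. PLAU fell by 0.36 (adjusted p = 5.94e-05), with -0.34 and 0.13 in its other probe sets, and the keratin KRT7 fell by 0.21 (adjusted p = 0.00129).

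**Figure D4:**
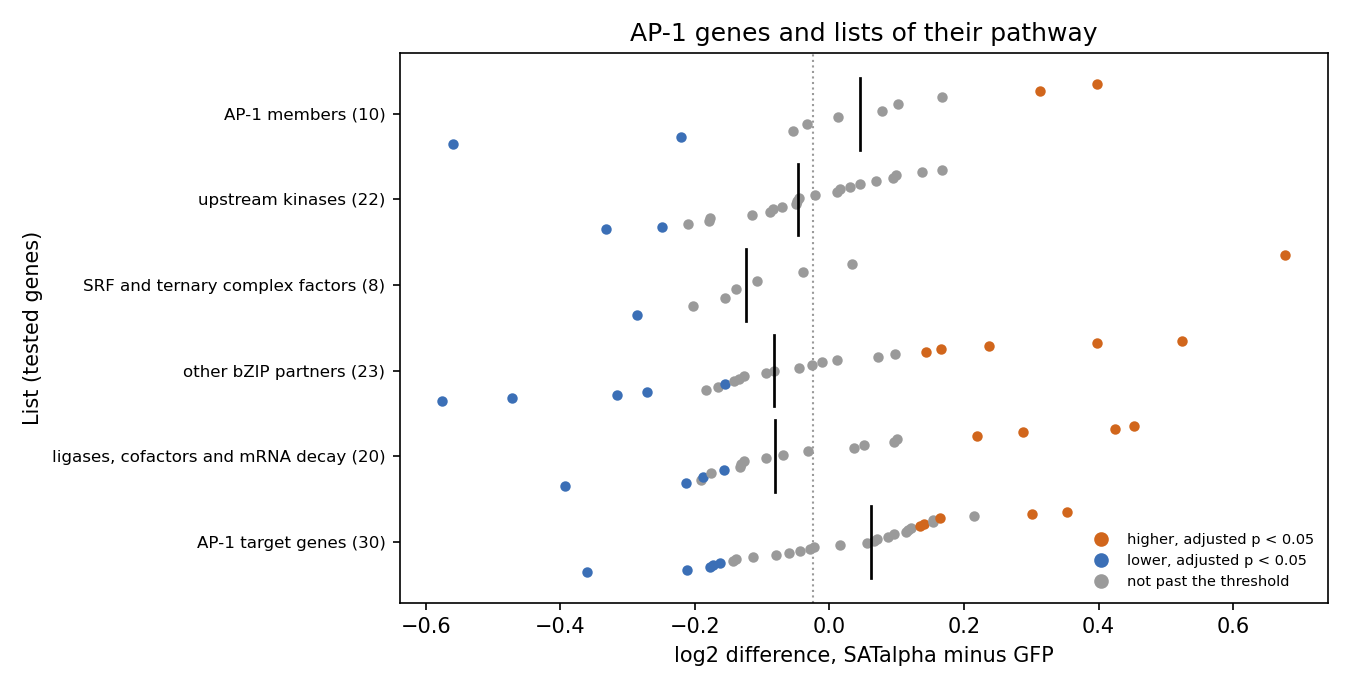
Log2 difference, SATalpha minus GFP (x axis), of each tested gene in 6 lists (y axis, number of tested genes in brackets), with list medians as black bars and the median of all tested genes, -0.02, as a dotted line. Orange and blue mark adjusted p below 0.05. Each list except the upstream kinases holds genes called in both directions.

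The medians of the 6 arrays lay between 5.29 and 5.31, and their highest values were 14.31 to 14.32 with GFP and 13.98 to 14.01 with satellite alpha. The groups did not overlap in that maximum, and correlations across probe sets, which are not independent, were 0.9963 to 0.9974 for arrays of the same plasmid and 0.9950 to 0.9961 for arrays of different ones. Of 13 retinal pigment epithelium markers with a probe set, 8 were above the filter's floor of 5.19, among them MITF, OTX2, KRT8 and KRT18, whereas RPE65, RLBP1 and BEST1 lay below it. The keratins were lower with satellite alpha: KRT8 fell from 11.48 to 11.35 (limma adjusted p = 0.0266) and KRT18 from 12.22 to 12.00 (limma adjusted p = 0.000675). The mean level of that list was 7.155 to 7.178 with GFP and 7.102 to 7.147 with satellite alpha, with no overlap. Fibroblast and leukocyte lists averaged 3.36 to 3.88 on the GFP arrays and 3.42 to 3.82 on the SATalpha arrays, and only PDGFRB of these lists was above the floor, with no call (limma adjusted p = 0.661). The endothelial list averaged 4.56 to 4.64 with GFP and 4.57 to 4.72 with satellite alpha. Of its 5 genes, 3 were above the floor (PECAM1, VWF and KDR), with no call. A photoreceptor list averaged 5.12 to 5.30 with GFP and 4.93 to 4.998 with satellite alpha, and 1 of its 2 genes above the floor, PDE6B, fell from 6.02 to 5.61 (limma adjusted p = 0.00284). The part of these marker differences in the AP-1 results was not tested.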

How the data were processed

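RNA from 6 ARPE-19 transfections (3 GFP, 3 SATalpha, grouped by sample title) was hybridised to Affymetrix 3′ expression arrays, per the labels' protocols. The authors deposited 1 log2 signal per probe set and array, already normalized between arrays. The log base was read from the range of values, and MAS5 and RMA are both named in the submitters' processing notes, with no role for either. Versions and a genome build are not given in the labels. Signal could not be set against background, since scanner files were not used here.

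Gene names came from the platform's gene table. Of 49372 probe sets, 79 controls were left out, and 44988 had 1 symbol. Each gene was represented by its brightest probe set, and genes in the lowest 40% of mean signal were not tested. Groups were compared with limma 3.58.1 in R 4.3.3 (moderated test with a mean-variance trend, Benjamini-Hochberg over 10879 genes, threshold 0.05). A fit over all 49293 non-control probe sets, unfiltered, gave the values by probe set. A fit over 20604 within-array differences between a further probe set and the brightest one tested unequal change. The test was tested on simulated data. Precision is limited by the number of arrays: a gene's log2 difference had a median SE of 0.06.

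Whether wells of 1 plasmid were separate cultures is not stated in the labels, so the p-values reflect spread among wells that may be technical only. No scan date or batch was given, so batch and group cannot be told apart. The members and lists were chosen with earlier results of these data known. Named genes were all 10 members and, of each list, up to 4 called genes with the smallest p. Alternatives were other filters, quantile normalization, median centring, the mean of a gene's probe sets, no shared probe sets, a replicate block, no variance trend, array weights and each array left out in turn.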

Additional observations from a re-analysis of the deposited data

How the results depend on the processing

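JUN and ATF3 passed in the same direction under all 15 alternatives, and JUND under the 14 in which it had a probe set. For JUN and ATF3, every alternative except the mean of a gene's probe sets used the brightest probe set alone. Those fits could not address the disagreement among JUN probe sets. The falling JUN probe set 11718397_s_at itself passed under 11 of 12 alternatives of the fit by probe set. FOSL2 passed under 14 of 15, each time by its brightest probe set alone. The exception was the mean of its probe sets, the 1 alternative that used the others (-0.05, limma adjusted p = 0.560). Those 14 therefore could not address the disagreement among FOSL2 probe sets, and the gene's direction stayed unsettled. The count of 4 member genes was 4 with any array left out (range 4 to 4). The count of 10 member probe sets was 8 to 11 with an array left out and fell to 6 with no mean-variance trend, where JUN 11718397_s_at, FOSL2 11763169_at and ATF3 11719344_a_at and 11719343_x_at were lost. The count of 4 unequal probe sets was 1 to 4 with an array left out. Over all genes, 2259 calls became 1216 to 2520 with an array left out, at 1216 without GFP replicate 1 and 1396 without SATalpha replicate 1.

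No label says that a replicate number marks a shared day or culture, so the numbers were not taken as pairs. Same-numbered arrays did not deviate together (r = -0.0035, -0.24 and -0.29 across genes), and no array correlated best with its own number. With a replicate block, 1300 genes were called, the 4 member genes still passed, 8 of the 10 member probe sets did (not FOSL2 11763169_at or ATF3 11719343_x_at), and 0 of the 26 probe set comparisons did by limma (6 at an unadjusted p under 0.05, lowest adjusted p 0.0673), against 3 of all 20604. That fit has fewer residual degrees of freedom.

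Of 145 values for single members, 5 changed sign, none of them called: FOSL1 as the mean of its probe sets (0.0377) or without shared probe sets (0.0109), ATF2 with array weights (0.0068) or without SATalpha replicate 3, and BATF3 without SATalpha replicate 3. With an array left out, ATF2 ranged from -0.0888 to 0.0478 and BATF3 from -0.0435 to 0.0768. The cause was not tested. Counts for the lists ranged from 0 to 4 (kinase cascades), 1 to 4 (SRF, its partners and MEF2 genes), 7 to 11 (other basic leucine zipper genes), 4 to 11 (ligases, cofactors and decay factors) and 6 to 13 (targets).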
